A study of Saccharomyces cerevisiae with 16 samples.

Results

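The genes described here are 9 budding yeast genes of the hypoxic response: ANB1, AAC3, COX5B and CYC7, which encode hypoxic isoforms of proteins that also have an aerobic form, the heme synthesis gene HEM13, and the regulators ROX1, HAP1, MOT3 and UPC2. They were chosen by name, with earlier results of these data known. Each is represented by exactly 1 probe set, so they are 9 of the 5449 genes measured by 5498 tested probe sets.

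Transcript levels were measured on 16 Affymetrix arrays, 2 for each of 8 strains of Saccharomyces cerevisiae that were cultured at 30 °C until the optical density reached 0.5. Every strain carries leu2, leu2-3, trp1, gal2 and ura3-52, is deficient in vacuolar proteases through prb1-1122, pep4-3 and prc467, and has a CBP tag on CCT6, a subunit of the chaperonin CCT. WT has the tag with KanMX4 and no substitution. The mutants each have an aspartate-to-glutamate substitution marked with KANMX4: D96E in CCT1 (MA1), D90E in CCT2 (MA2), D91E in CCT3 (MA3), D117E in CCT5 (MA5), D89E in CCT6 itself (MA6), D96E in CCT7 (MA7) and D98E in CCT8 (MA8). In all of them except MA6 the tag is marked with URA3. The labels name no change of oxygen supply between groups.

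In budding yeast, heme synthesis needs oxygen, so heme serves as the oxygen signal. With heme, the activator Hap1 turns on respiratory genes and ROX1, and the repressor Rox1, helped by Tup1-Cyc8 and at some promoters by Mot3, keeps hypoxic genes off. When oxygen falls, this repression is lifted. When oxygen or sterol falls, the activator Upc2 turns on sterol synthesis and anaerobic cell wall and sterol uptake genes.

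The arrays go against part of their labels. On the log2 scale used for all levels here, URA3 lay between 7.23 and 8.12 on 4 arrays (MA2 replicate 2, MA8 replicate 1, WT replicate 1 and MA5 replicate 1) and was at least 11.70 on the other 12. By their genotype, 6 of the 16 arrays should have had the opposite level: both arrays of MA6, WT replicate 2, MA2 replicate 2, MA5 replicate 1 and MA8 replicate 1. A strain name therefore stands for the arrays that carry its label, and every direction between strains depends on those labels. The 317 chromosome X probe sets, ANB1 among them, had median deviations from their 16-array medians of 0.71 on MA3 replicate 1 and 0.77 on MA7 replicate 2, and between -0.03 and 0.02 on the other 14. No other chromosome's median went outside -0.09 to 0.05 on any array.

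Among the 9 genes, ANB1 varied most by far. It was low on 6 arrays, labelled with 6 different strains, and the same 6 arrays also held the 6 lowest values of HEM13, HAP1 and UPC2. The 6 arrays were picked by ANB1, and 1.51% of all 5498 tested probe sets were likewise lower on each of them than on any other. AAC3, COX5B and CYC7 shared only some of these arrays, and CYC7 was highest on a pair of them. MOT3 had its 5 highest values on 5 of the 6, and MOT3 and ROX1 had the narrowest ranges of the 9 genes. In 6 of the 8 strains 1 array was low and 1 was high for ANB1, and no gene of the 9 passed the test between strains.

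**Figure D1:**
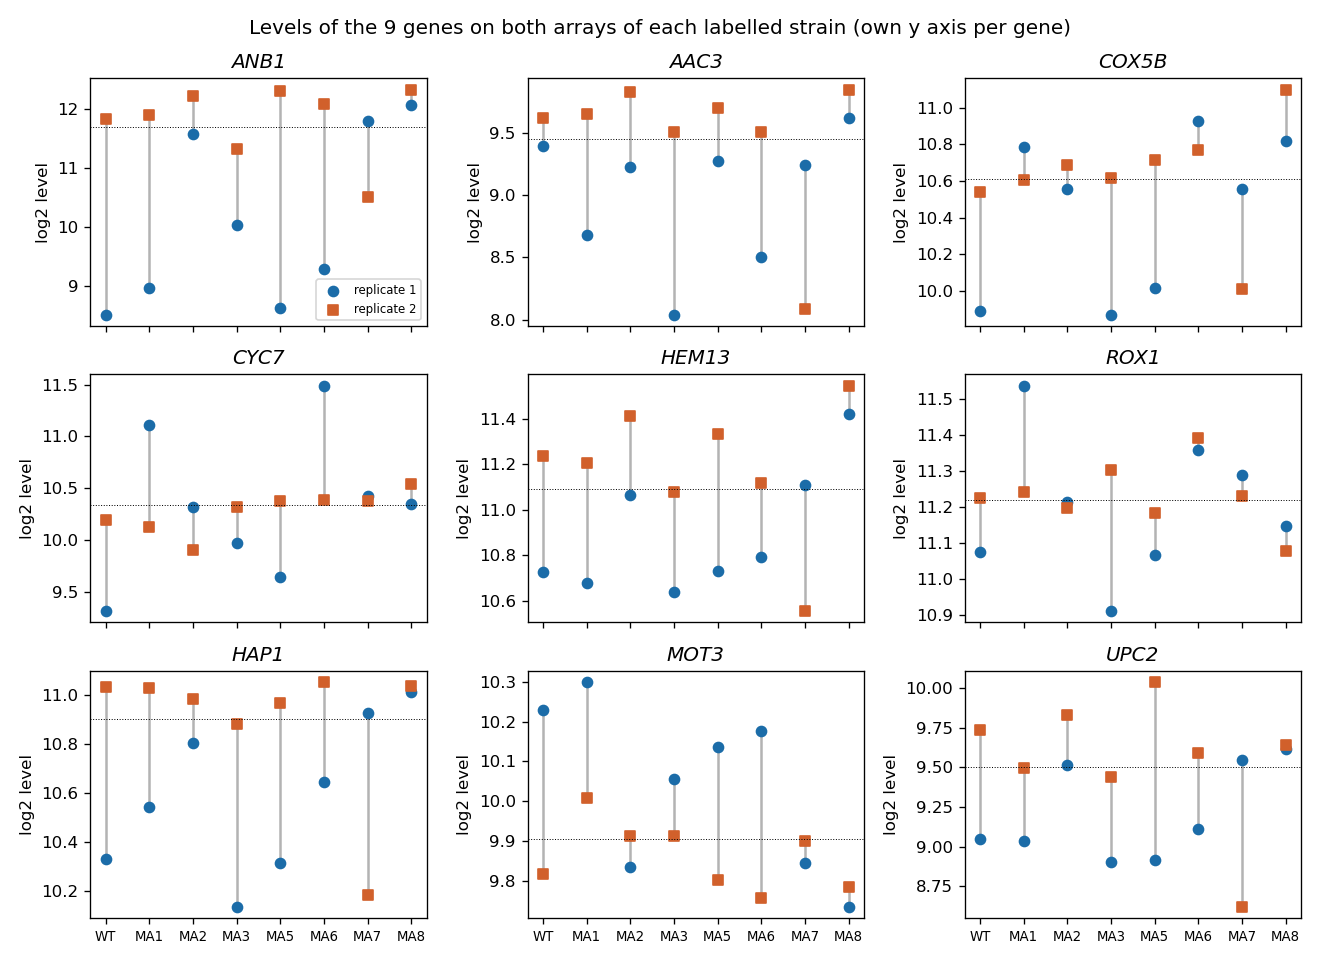
Log2 level (y axis, own scale per gene) of the 9 genes in each labelled strain (x axis), with a circle for replicate 1, a square for replicate 2, a grey line joining both and a dotted line at the 16-array median. The arrays of a strain lie 3.31 apart for ANB1 in WT and 3.68 in MA5, but 0.27 apart in MA8.

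ANB1 encodes the hypoxic form of the translation factor eIF5A. It was 8.51 and 11.82 on the arrays labelled WT replicates 1 and 2, 8.97 and 11.89 in MA1, 11.58 and 12.22 in MA2, and 10.02 and 11.32 in MA3. It was 8.62 and 12.30 in MA5, 9.29 and 12.09 in MA6, 11.79 and 10.50 in MA7, and 12.06 and 12.33 in MA8. The low arrays were thus the first of WT, MA1, MA3, MA5 and MA6 and the second of MA7, and a gap of 0.82, or 1.76-fold, separated them from the other 10. From the lowest to the highest array the difference was 3.82, or 14.1-fold, and only 16 of the 5498 tested probe sets had a wider range. The median range of all tested probe sets was 0.50, which each of the 9 genes exceeded. These are averages over a culture, so fewer cells with the transcript and less of it per cell cannot be told apart.

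Within the 6 low arrays ANB1 was not uniform. WT replicate 1 and MA5 replicate 1 had the lowest values, MA1 replicate 1 and MA6 replicate 1 followed, and MA3 replicate 1 and MA7 replicate 2 were highest. The last pair are the arrays with the raised chromosome X. With the chromosome X median of each array subtracted, ANB1 was 9.31 on MA3 replicate 1 and 9.73 on MA7 replicate 2, still below the lowest of the other 10 arrays, which was then 11.35.

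**Figure D2:**
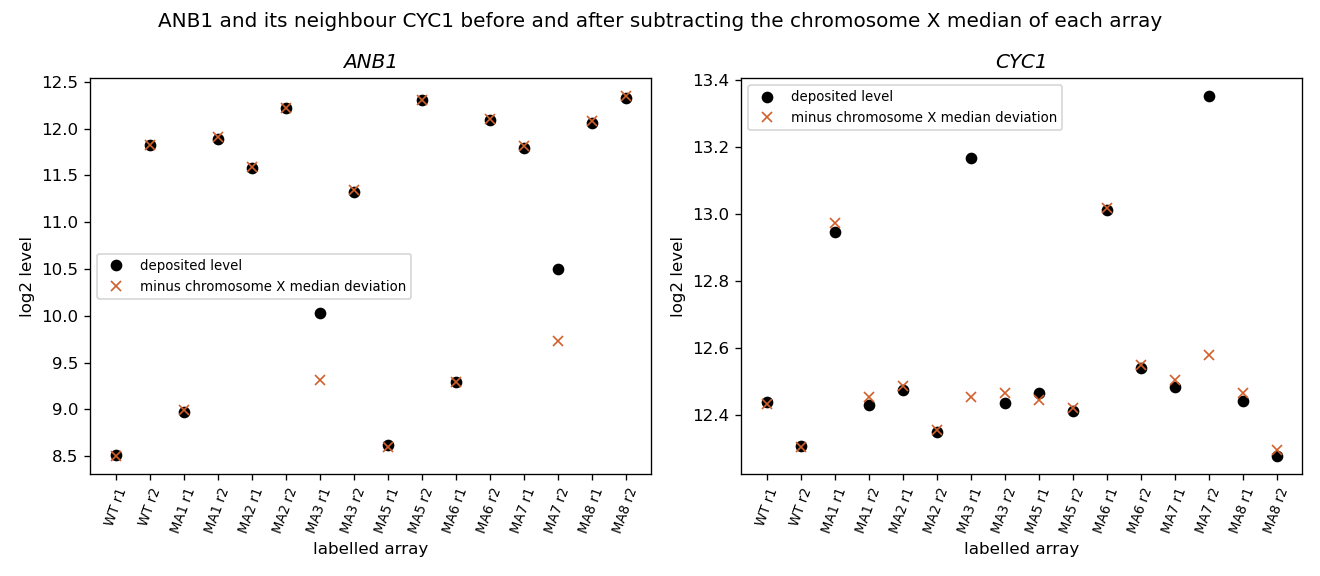
Log2 level (y axis) of ANB1 and of its chromosomal neighbour CYC1 on each labelled array (x axis), as deposited (dots) and with the array's chromosome X median deviation subtracted (crosses). Only MA3 replicate 1 and MA7 replicate 2 move visibly, ANB1 to 9.31 and 9.73 and CYC1 to 12.45 and 12.58.

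AAC3 encodes the ADP/ATP carrier of mitochondria that is used without oxygen. It was 9.40 and 9.63 in WT, 8.68 and 9.65 in MA1, 9.23 and 9.83 in MA2, and 8.04 and 9.51 in MA3. It was 9.27 and 9.70 in MA5, 8.50 and 9.51 in MA6, 9.24 and 8.08 in MA7, and 9.62 and 9.85 in MA8. Only 4 arrays stood below the widest gap, from 8.68 to 9.23: MA3 replicate 1, MA7 replicate 2, MA6 replicate 1 and MA1 replicate 1. WT replicate 1 and MA5 replicate 1, the lowest for ANB1, lay among the other arrays for AAC3, above MA2 replicate 1 and MA7 replicate 1. The whole range was 1.81, or 3.51-fold.

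COX5B encodes the hypoxic isoform of subunit V of cytochrome c oxidase. It was 9.89 and 10.54 in WT, 10.79 and 10.61 in MA1, 10.56 and 10.69 in MA2, and 9.87 and 10.61 in MA3. It was 10.02 and 10.72 in MA5, 10.92 and 10.77 in MA6, 10.56 and 10.01 in MA7, and 10.82 and 11.10 in MA8. Here the 4 low arrays were MA3 replicate 1, WT replicate 1, MA7 replicate 2 and MA5 replicate 1, at 10.02 or less, with the next at 10.54. MA1 replicate 1 and MA6 replicate 1, which were low for ANB1 and AAC3, were among the 4 highest for COX5B. The range was 1.23, or 2.34-fold.

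CYC7 encodes the minor, hypoxic isoform of cytochrome c. It was 9.31 and 10.19 in WT, 11.11 and 10.13 in MA1, 10.32 and 9.90 in MA2, and 9.97 and 10.32 in MA3. It was 9.64 and 10.38 in MA5, 11.49 and 10.38 in MA6, 10.43 and 10.38 in MA7, and 10.35 and 10.54 in MA8. MA1 replicate 1 and MA6 replicate 1 were 0.57 above the next array, while WT replicate 1 and MA5 replicate 1 were the lowest. CYC7 thus ran opposite to ANB1 on the first pair and with it on the second, over a range of 2.18, or 4.52-fold.

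HEM13 encodes coproporphyrinogen III oxidase, a step of heme synthesis that consumes oxygen. It was 10.72 and 11.24 in WT, 10.68 and 11.20 in MA1, 11.06 and 11.41 in MA2, and 10.64 and 11.08 in MA3. It was 10.73 and 11.33 in MA5, 10.79 and 11.12 in MA6, 11.11 and 10.55 in MA7, and 11.42 and 11.55 in MA8. The 6 arrays lowest for ANB1 were also lowest for HEM13, between 10.55 and 10.79 against 11.06 to 11.55 on the other 10, with no overlap. In this way 1.51% of all tested probe sets were lower on these 6 arrays, which were picked by ANB1. The HEM13 range of 0.99, or 1.99-fold, was narrower than that of any of the 4 isoforms.

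**Figure D3:**
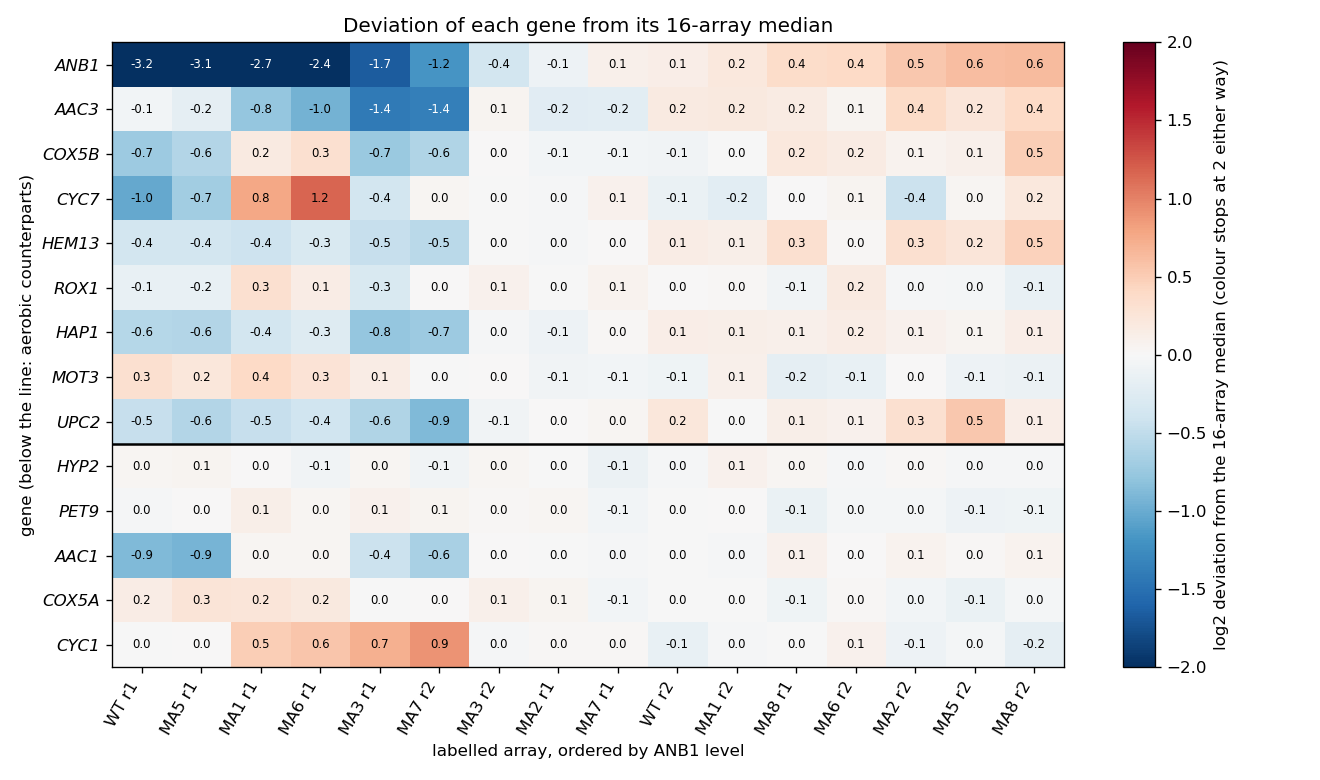
Deviation of each gene (rows) from its own 16-array median on the log2 scale, for the labelled arrays (columns) ordered from the lowest to the highest ANB1, with the aerobic counterparts below the black line. ANB1, HEM13, HAP1 and UPC2 are below 0 (blue) on the 6 arrays at the left, as is AAC3, though by only -0.05 on WT replicate 1 and -0.18 on MA5 replicate 1. COX5B is below 0 on 4 of them, and CYC7 is red on MA1 replicate 1 and MA6 replicate 1.

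Of the regulators, HAP1, the heme-responsive activator, was 10.33 and 11.03 in WT, 10.54 and 11.03 in MA1, 10.80 and 10.98 in MA2, and 10.14 and 10.88 in MA3. It was 10.31 and 10.97 in MA5, 10.65 and 11.05 in MA6, 10.93 and 10.18 in MA7, and 11.01 and 11.04 in MA8. The same 6 arrays lay between 10.14 and 10.65 and the other 10 between 10.80 and 11.05, a separation that 1.51% of all tested probe sets had. MA3 replicate 1 and MA7 replicate 2 were the lowest, and MA1 replicate 1 and MA6 replicate 1 were nearest to the rest.

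UPC2, the sterol-sensing activator of anaerobic genes, was 9.05 and 9.73 in WT, 9.04 and 9.49 in MA1, 9.51 and 9.83 in MA2, and 8.90 and 9.44 in MA3. It was 8.92 and 10.04 in MA5, 9.11 and 9.59 in MA6, 9.55 and 8.62 in MA7, and 9.62 and 9.64 in MA8. The 6 arrays lay between 8.62 and 9.11 and the others between 9.44 and 10.04, again without overlap. So did 1.51% of all tested probe sets separate in this direction. The range of UPC2 was 1.42, or 2.67-fold, the widest of the 4 regulators. UPC2 lies beside TCP1, the first CCT gene, in the gene table, and TCP1 kept to between 12.41 and 12.85 on all arrays.

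ROX1, the heme-induced repressor itself, had a range of 0.63, or 1.54-fold, which 36.9% of tested probe sets reached or passed. It was 11.08 and 11.22 in WT, 11.54 and 11.24 in MA1, 11.21 and 11.20 in MA2, and 10.91 and 11.30 in MA3. It was 11.07 and 11.18 in MA5, 11.36 and 11.39 in MA6, 11.29 and 11.23 in MA7, and 11.15 and 11.08 in MA8. ROX1 was therefore highest on MA1 replicate 1 and lowest on MA3 replicate 1, both arrays with low ANB1. WT replicate 1 and MA5 replicate 1, where ANB1 was lowest, were also near the bottom for ROX1.

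MOT3, which encodes a zinc finger repressor of part of the hypoxic genes, ran the other way over a narrow range of 0.57, or 1.48-fold. It was 10.23 and 9.82 in WT, 10.30 and 10.01 in MA1, 9.84 and 9.91 in MA2, and 10.06 and 9.91 in MA3. It was 10.14 and 9.80 in MA5, 10.18 and 9.76 in MA6, 9.84 and 9.90 in MA7, and 9.73 and 9.78 in MA8. Of the 6 arrays low for ANB1, 5 had the 5 highest MOT3 values, and the sixth, MA7 replicate 2, was 9.90, within the range of the other arrays. MA1 replicate 2, at 10.01, came next below the 5.

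Over all 5498 tested probe sets, 83 or 1.51% were lower on each of these 6 arrays than on any of the other 10, and 40 or 0.728% were higher on each of them. The arrays were singled out by ANB1, which is therefore among the 83 by construction, and HEM13, HAP1 and UPC2 are the other members there. No member was among the 40. As these arrays were picked by a measured level, the counts describe their order only and no test was made.

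The pairwise likeness of the members across the 16 arrays, given as a description, followed the same lines. Pearson's r was 0.92 between HEM13 and UPC2, 0.91 between HAP1 and UPC2 and 0.91 between HEM13 and HAP1. ANB1 had 0.85 with HEM13, 0.82 with HAP1 and 0.82 with UPC2, and -0.90 with MOT3. CYC7 stood apart, with 0.05 against ANB1 and 0.00 against HEM13, and was most like COX5B (0.67) and ROX1 (0.67). ROX1 had 0.03 with ANB1. The points are whole arrays, some with closely alike profiles, and r without the 6 low arrays was not computed.

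Of the aerobic counterparts, HYP2 and PET9 stayed nearly level, while AAC1 and CYC1 shared some arrays with hypoxic isoforms. HYP2, the aerobic eIF5A gene, stayed between 13.90 and 14.09 on the 16 arrays, a range of 0.20 where ANB1 had 3.82. PET9, the major ADP/ATP carrier, stayed between 13.55 and 13.79. The levels of HYP2 and PET9 did not follow those of ANB1 and AAC3. Near-identical paralogs can share probe signal, which was not tested. COX5A ranged from 12.26 to 12.65, with its 4 highest values on MA5 replicate 1, MA1 replicate 1, MA6 replicate 1 and WT replicate 1.

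AAC1, a further ADP/ATP carrier of aerobic cells, was low on the same 4 arrays as COX5B. It was 9.27 on WT replicate 1, 9.22 on MA5 replicate 1, 9.72 on MA3 replicate 1 and 9.50 on MA7 replicate 2, and at least 10.12 on the other 12. CYC1 is the major cytochrome c gene and the neighbour of ANB1 on chromosome X. Its 4 highest levels were 13.35 on MA7 replicate 2, 13.17 on MA3 replicate 1, 13.01 on MA6 replicate 1 and 12.95 on MA1 replicate 1, and no other array exceeded 12.54. With the chromosome X median subtracted, MA3 replicate 1 and MA7 replicate 2 fell back to 12.45 and 12.58, whereas MA1 replicate 1 and MA6 replicate 1 remained the highest at 12.97 and 13.02. On that last pair both cytochrome c genes, CYC1 and CYC7, were thus at their highest, with CYC1 taken relative to its chromosome.

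**Figure D4:**
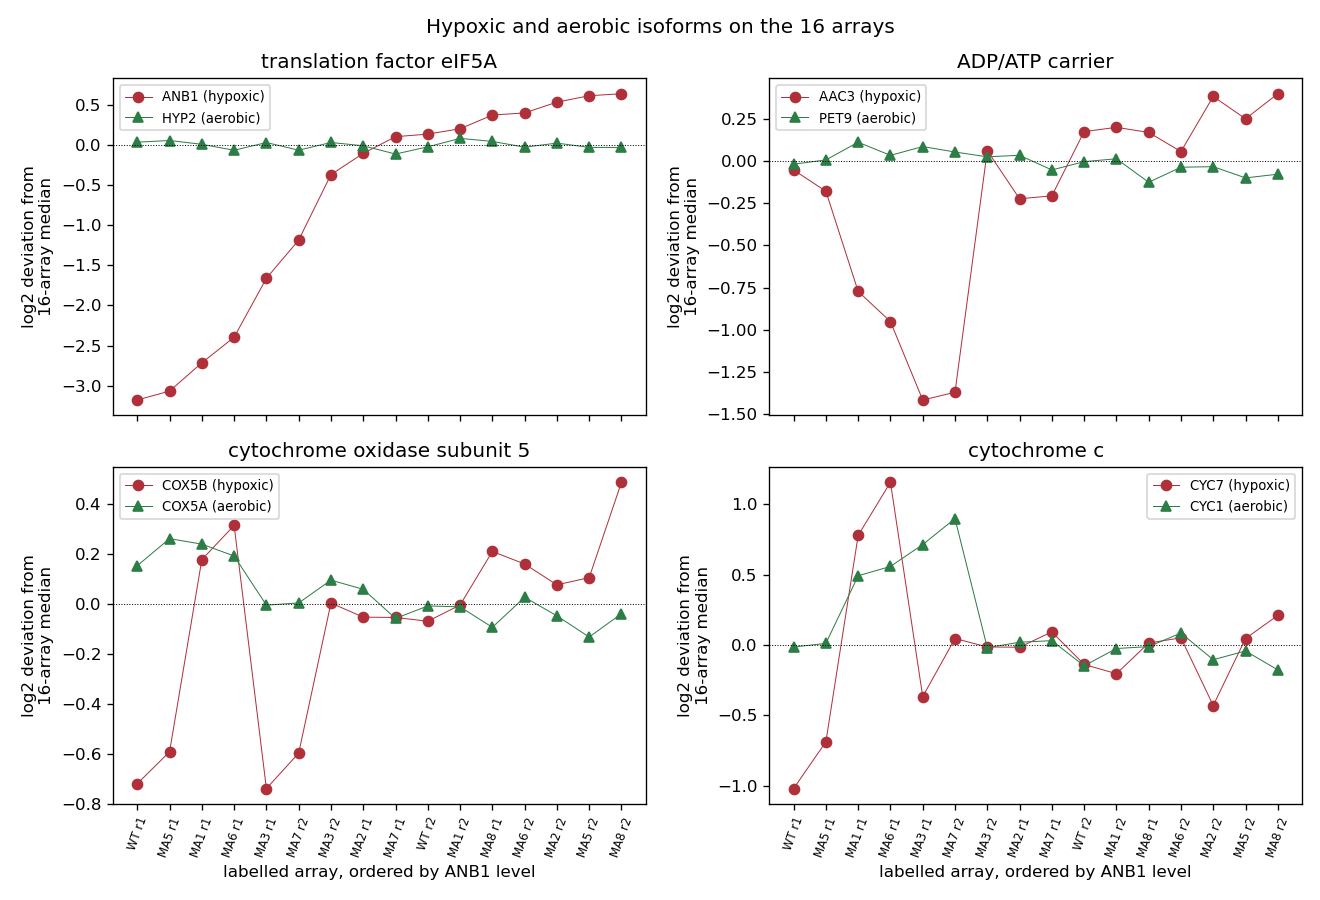
Log2 deviation from the 16-array median (y axis) of the hypoxic isoform (circles) and an aerobic counterpart (triangles) of 4 proteins, on the labelled arrays ordered by ANB1 (x axis). HYP2 and PET9 stay near 0 where ANB1 and AAC3 are far below it, and CYC1 and CYC7 are both above 0 on MA1 replicate 1 and MA6 replicate 1.

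The other 7 genes of heme synthesis were measured, and none had its 6 lowest values on the 6 arrays that were low for HEM13. HEM1, the first enzyme of the pathway, was at most 11.51 on MA6 replicate 1, MA7 replicate 2, MA3 replicate 1 and MA1 replicate 1 and at least 11.78 on the rest. HEM2 had its lowest values on the same 4 arrays, at most 12.06 against 12.15 or more. HEM14, protoporphyrinogen oxidase, was instead lowest on MA7 replicate 2 (9.87), MA3 replicate 1 (9.91), MA5 replicate 1 (9.95) and WT replicate 1, and 10.14 or more on the rest. HEM12 was 10.95 on both MA1 replicate 1 and MA6 replicate 1 and at least 11.17 elsewhere. HEM3, HEM4 and HEM15 had ranges of 1.09, 0.35 and 0.43. HMX1, the heme oxygenase that degrades heme, was highest on MA3 replicate 1 (11.83) and MA7 replicate 2 (11.72), followed by MA6 replicate 1 (11.28) and MA1 replicate 1 (11.21).

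Among further regulators HAP4 had the widest range, 1.14, between those of HAP1 and UPC2. MGA2, which activates the fatty acid desaturase gene OLE1, was between 10.04 and 10.19 on the 6 arrays and between 10.21 and 10.57 on the other 10. It was the only one of 11 further regulators without overlap, where 1.51% of all tested probe sets were lower in this way. TUP1, the co-repressor of Rox1, was highest on MA5 replicate 1 (12.78) and WT replicate 1 (12.74) and lowest on MA6 replicate 1 (12.10) and MA1 replicate 1 (12.16). Its partner CYC8 had a range of 0.27. HAP4, the activating subunit of the complex it forms with Hap2, Hap3 and Hap5, was highest on MA6 replicate 1 (10.57), MA1 replicate 1 (10.47) and MA7 replicate 2 (10.46), while HAP2, HAP3 and HAP5 had ranges of 0.33, 0.40 and 0.27. ECM22, the paralog of UPC2, was lowest on MA6 replicate 1 (9.27), MA3 replicate 1 (9.29), MA7 replicate 2 (9.31) and MA1 replicate 1 (9.35), and WT replicate 1 (9.53) was within the range of the other arrays.

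Genes known to depend on these regulators gave mixed patterns. Of the 10 Upc2-dependent genes, DAN1, TIR1, TIR3 and TIR4 (cell wall mannoproteins) and AUS1 (a sterol importer) were lower on each of the 6 arrays than on any other. So were 1.51% of all tested probe sets. The arrays were picked by ANB1, and TIR1, TIR3 and DAN1 are the genes most like it, so their separation is no independent result. TIR1 was between 9.21 and 10.87 on the 6 arrays and between 12.35 and 13.27 elsewhere. DAN1, on chromosome X, was lowest on WT replicate 1 (6.14) and MA5 replicate 1 (6.33), between 8.30 and 9.95 on the other 4 and at least 10.98 on the remaining 10. TIR2 overlapped, with WT replicate 1 (9.64), MA5 replicate 1 (9.52) and MA7 replicate 2 (9.40) within the range of the other 10. DAN4, on chromosome X, was highest on MA3 replicate 1 (9.51) and MA7 replicate 2 (9.49) as deposited, and was 8.79 and 8.72 there with the chromosome X median subtracted. As deposited it was lowest on WT replicate 1, followed by MA5 replicate 1 (8.53). PAU24, earlier named DAN3, had a range of 4.83, the third widest of all tested probe sets. It was 6.70 on WT replicate 1, 7.01 on MA5 replicate 1, 8.01 on MA1 replicate 1 and 8.11 on MA6 replicate 1, whereas MA3 replicate 1 (9.52) and MA7 replicate 2 (10.26) were nearer to or within the 9.99 to 11.53 of the other 10. PAU23, earlier named DAN2, had probe sets with ranges of 0.43 and 0.81, and genes of the PAU family are so alike that their signals may be shared. PDR11, a further sterol importer, was low on MA7 replicate 2 (8.12), MA3 replicate 1 (8.19), WT replicate 1 (8.80) and MA5 replicate 1 (9.03) only, the set seen for COX5B, and at least 9.57 elsewhere. Of 7 genes activated by Hap1, SOD2 (mitochondrial superoxide dismutase) was higher on each of the 6 arrays, 12.30 to 12.40 against 12.03 to 12.16. So were 0.728% of all tested probe sets. CYB2 (lactate dehydrogenase), CTT1 (catalase) and QCR2 were highest on MA6 replicate 1 and MA1 replicate 1, as CYC7 was. CYC1 was so only with the chromosome X median subtracted. YHB1 was instead near its lowest on that pair (13.87 and 13.90), over a range of 0.15. CYT1 was highest on WT replicate 1 (10.89) and MA5 replicate 1 (10.88). Among 8 oxygen-regulated lipid and iron genes, only NCP1 (the P450 reductase) was lower on each of the 6, 13.01 to 13.11 against 13.12 to 13.25. So were 1.51% of all tested probe sets. The whole NCP1 range was 0.24, which 90.5% of tested probe sets reached or passed. OLE1 and ERG11, which are also oxygen-regulated, had ranges of 0.30 and 0.26.

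The genes whose levels over the 16 arrays were most like each member were named by Pearson's r, which describes arrays that share processing and fall into alike sets. For ANB1 they were TIR1 (0.98), TIR3 (0.98) and DAN1 (0.98). For AAC3 they were NRG2 (0.97), FZF1 (0.95) and PAD1 (0.95), and for HEM13 PMC1 (0.95), AUS1 (0.95) and FRD1 (0.94). COX5B was closest to LPD1 (0.96), BDH2 (0.96) and YOR1 (0.95), and CYC7 to ARC19 (0.96), GDB1 (0.96) and UBP15 (0.95). HAP1 was closest to MEP2 (0.95), AAD3 (0.95) and PRP22 (0.95), and UPC2 to YML083C (0.93), PBI1 (0.92) and MEP2 (0.92). MOT3 was closest to CYT1 (0.91), LAS17 (0.87) and HEM15 (0.86). ROX1 had the weakest best match, APC1 (0.85), with PSP1 and ESL1 at 0.83 each. No gene was among the first 3 of more than 1 member except MEP2, the ammonium permease, for HAP1 and UPC2.

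Taken over the 9 genes together, arrays of one label were not the most alike. Their root mean square difference had a median of 0.95 for the 8 pairs that share a label, against 0.77 for the 112 that do not, and ANB1, with the widest range, weighs most in it. The nearest array had the same label for 1 of the 16 arrays, MA8 replicate 2. Among the 6 arrays low for ANB1, WT replicate 1 and MA5 replicate 1 were nearest to each other (0.14), as were MA1 replicate 1 with MA6 replicate 1 (0.20) and MA3 replicate 1 with MA7 replicate 2 (0.27). Among the other 10, the same held for MA2 replicate 1 with MA7 replicate 1 (0.09), WT replicate 2 with MA1 replicate 2 (0.11) and MA6 replicate 2 with MA8 replicate 1 (0.14). For 6 of the 9 genes the largest difference between both arrays of a strain exceeded the difference between the highest and the lowest strain mean.

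Each mutant was then compared with WT, which asks whether a substitution changes these genes, in a linear model of all 16 arrays (limma, called at a Benjamini-Hochberg adjusted p under 0.05). No member was called in any of the 7 comparisons, and 0 of all 5498 tested probe sets (0%) were called in each. At an unadjusted p under 0.05, CYC7 in MA6 and COX5B in MA8 were the 2 members of 63 contrasts below it. That is 1 of 9 members in MA6, where 11.5% of all tested probe sets were below it, and 1 of 9 in MA8, where 4.06% were. In MA1, MA2, MA3, MA5 and MA7 no member was below it, where 4.13%, 0.746%, 4.69%, 0.327% and 8.97% of all tested probe sets were. The unmoderated linear model also called 0.

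The changes themselves were large only beside large errors. In MA6 CYC7 averaged 10.94 ± 0.78 (SD, n = 2), against 9.75 ± 0.62 in WT, a difference of 1.18 with an SE of 0.44 that did not pass (limma adjusted p = 0.40). Without MA6 replicate 1 this difference was 0.63 and without WT replicate 1 it was 0.74, whereas without MA6 replicate 2 it was 1.74 and without WT replicate 2 it was 1.62. COX5B was 10.96 ± 0.20 in MA8 and 10.22 ± 0.46 in WT, a log2 difference of 0.74 ± 0.31 (SE; limma adjusted p = 0.97), which was 0.42 without WT replicate 1 and 1.07 without WT replicate 2. ANB1 was 12.19 ± 0.19 in MA8 and 10.17 ± 2.34 in WT, a change of 2.03 ± 1.49 (limma adjusted p = 0.97). It was 0.37 without WT replicate 1 and 3.69 without WT replicate 2, so the WT arrays decide its size.

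The remaining members had their largest moderated t in MA7, MA8 or MA1. AAC3 had -0.85 ± 0.56 in MA7 and UPC2 -0.31 ± 0.42 in MA7. HEM13 had 0.50 ± 0.29, HAP1 0.34 ± 0.35 and MOT3 -0.26 ± 0.18 in MA8, and ROX1 had 0.24 ± 0.13 in MA1. The smallest limma adjusted p of these 6 was 0.55, and all 9 changes are against the same WT arrays. Without 1 array the changes of AAC3 (MA7 replicate 1 or 2), HEM13 and MOT3 (WT replicate 1 or 2) and ROX1 (MA1 replicate 1 or 2) moved by over 1.5 times, to between -1.43 and -0.27, 0.25 and 0.76, -0.47 and -0.06, and 0.09 and 0.39. HAP1 in MA8 was -0.01 without WT replicate 1 and 0.69 without WT replicate 2. UPC2 in MA7 was 0.16 without MA7 replicate 2, 0.03 without WT replicate 2, -0.65 without WT replicate 1 and -0.77 without MA7 replicate 1. Without the 6 arrays that oppose their label, of which MA5 replicate 1 and MA6 replicate 1 are among the low arrays for ANB1, no member was called: ANB1 in MA8 had 3.82 (limma adjusted p = 0.53), COX5B in MA8 had 1.21 (limma adjusted p = 0.51), and each strain left with 1 array was assumed to vary like the others. MA6, and with it CYC7 there, had no array left.

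**Figure D5:**
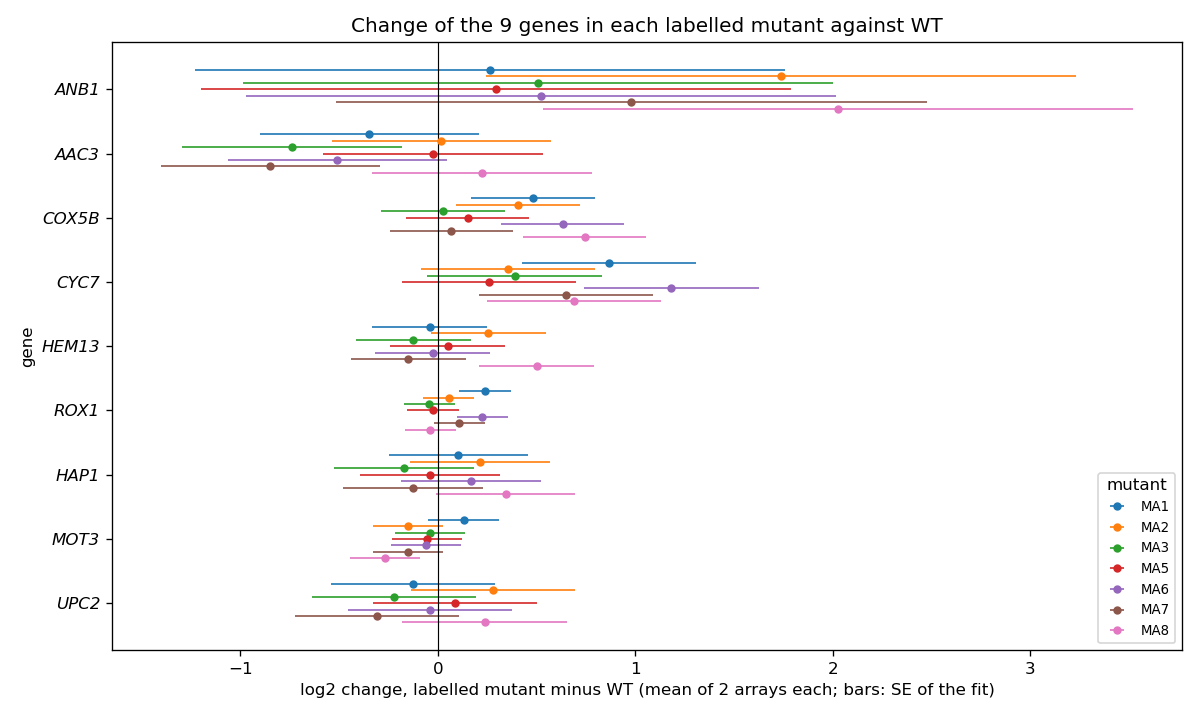
Log2 change of the 9 genes (rows) in each labelled mutant against WT (x axis, colours by mutant), with bars for the SE of the fit over 2 arrays per strain. All 7 points of ANB1, COX5B and CYC7 lie above 0, the points of the other genes lie on both sides, and the bars of ANB1 span 1.49 either way. Levels are as deposited, without subtracting the chromosome X median.

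All 7 mutants had higher means than WT for ANB1 (0.26 to 2.03), COX5B (0.03 to 0.74) and CYC7 (0.26 to 1.18), and these counts share 1 pair of WT arrays, of which replicate 1 was the lowest array for ANB1 and CYC7. The ANB1 changes use deposited levels, which include the raised chromosome X of MA3 replicate 1 and MA7 replicate 2. With its median subtracted ANB1 was 9.31 and 9.73 there instead of 10.02 and 10.50, so its changes in MA3 and MA7 are partly inflated. The median change of the 9 members ran from -0.13 in MA7 to 0.34 in MA8, beside medians over all tested probe sets between -0.05 and 0.00. For any difference among the 8 strains, the moderated F test of limma called 0 members and 0 of all tested probe sets (0%). No member had an unadjusted p under 0.05, where 2.71% of all tested probe sets did. Across the fixed lists, 0 of 5 aerobic counterparts, 0 of 7 heme synthesis genes, 0 of 11 further regulators, 0 of 8 lipid and iron genes, 0 of 7 Hap1-activated genes and 0 of 10 Upc2-dependent genes were called in either direction in any mutant.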

How the data were processed

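Per the submitters' processing notes, Partek and RMA were used, with no version. The authors deposited log2 values per probe set, which are relative between arrays and would hide a shift shared by all transcripts. Of 10928 probe sets, 5498 had exactly 1 S. cerevisiae gene in the platform annotation, with 12 symbols brought up to date from R64. The array's genome build: not given in the sources used here. Coordinates are therefore left out. Where a listed gene had several probe sets, the brightest was used.

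A linear model with a mean for each strain (limma 3.58.1, R 4.3.3) used all 16 arrays (8 residual and 2.02 prior degrees of freedom), two-sided, adjusted over all tested probe sets. Other values came from Python 3.11.15 with pandas 2.3.3. The fit was tested on simulated data with independent arrays and correct labels, which does not cover arrays that oppose their label. The members and lists were chosen with earlier results of these data known. Named were the members, the listed genes, the 3 genes most like each member by Pearson's r, some of the neighbouring genes, and URA3 as a check of the labels. The neighbours to name were chosen after their values were seen. Nothing says that replicates were separate cultures, so p-values measure the spread between these samples, which may be technical. For arrays, their number limits the precision.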

Additional observations from a re-analysis of the deposited data

How the results depend on the processing

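Alternatives were quantile normalization, median centring, probe sets with a mean of at least 7, all probe sets, a variance trend, an unmoderated model, a replicate block, leaving out each array in turn and, for the comparisons with WT, fitting only the 2 strains compared. Each of these kept 0 calls in all 7 comparisons with WT and in the F test (0 to 0 over the arrays left out), and no member was called in any. Without the 6 arrays that oppose their label, chosen after seeing the data, 1 probe set was called in each of MA1, MA2, MA3, MA5, MA7 and MA8 and 1 in the F test. It was URA3 each time, the gene by which those arrays were chosen, and MA6 then had no arrays. The change of UPC2 in MA7 turned to 0.0336 in that fit and ran from -0.77 to 0.16 over the arrays left out. That of HAP1 in MA8 ran from -0.00715 (without WT replicate 1) to 0.69. No other of the 9 changes named turned its sign. With the replicate block ANB1 in MA8 still had 2.03 (limma adjusted p = 0.96). The numbers carry no stated pairing: same-numbered deviations of 28 strain pairs correlated across probe sets from -0.66 to 0.93, with a median of 0.03. With 2 arrays a strain, differences smaller than the spread within labels were not detectable, and larger ones could also be missed. CYC7 in MA6 differed by 1.18, beside a pooled SD within strains of 0.49, and was not called.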

Other observations

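Genes next to the members on their chromosomes gave values outside the comparisons above. TAH11, which lies on the other side of ANB1 from CYC1 and acts in replication licensing, was 11.68 on MA3 replicate 1 and 11.66 on MA7 replicate 2 and at most 10.86 on the other arrays. It is on chromosome X as well, and it was 10.86 on WT replicate 1, where ANB1 was lowest. NRG1, the glucose-repression regulator beside HEM13, was highest on MA6 replicate 1 (9.95) and MA1 replicate 1 (9.69) and lowest on MA5 replicate 1 (8.58) and WT replicate 1 (8.63), the arrays that were also highest and lowest for CYC7. The flanking genes of CYC7, UTR2 and UTR4, stayed between 12.86 and 13.20 and between 11.69 and 12.19, where CYC7 ranged from 9.31 to 11.49. YBR085C-A, beside AAC3, was highest on MA1 replicate 1 (12.12) and MA6 replicate 1 (11.98). It was lowest on WT replicate 1 (10.09) and MA5 replicate 1 (10.17). AHA1, beside UPC2, was highest on MA7 replicate 2 (13.25) and MA3 replicate 1 (12.97), where UPC2 was lowest. Further neighbours were measured and are not named.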
